A study of Mus musculus with 2 samples.

Results

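Zic1, Zic2, Zic4 and Zic5 were followed by symbol in single-cell RNA sequencing of inter-limb somites from C57BL/6 wild-type mouse embryos at embryonic day (E) 9.5 and 11.5, 4 of 27998 genes in the count tables. At each stage 3 embryos were pooled into 1 library, so there is no replicate of a stage, no test between stages was possible, and stage and library cannot be told apart. All intervals are exact 95% intervals that cover counting error only. The libraries held 10121 and 10167 barcodes, of which 9851 and 9595 were kept, with medians of 12462 and 12479 unique molecular identifiers (UMIs, tags that count each captured molecule once) per cell.

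Zic genes encode zinc finger transcription factors related to the Gli proteins, the mediators of hedgehog signalling. They are known for roles in the dorsal neural tube, in neural tube closure and in the dorsal somite, where they lie on the side facing dorsal Wnt and Bmp signals. Zic1 is a known marker of dorsomedial somite cells and a known activator of Myf5, Zic2 is required for closure of the neural tube, and Zic4 and Zic5 are their respective close neighbours in the genome.

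The genes form 2 head-to-head pairs. On GRCm38 in GENCODE M21, Zic1 (ENSMUSG00000032368) spans chr9:91358058-91365810 on the minus strand and Zic4 (ENSMUSG00000036972) chr9:91362413-91389348 on the plus strand, so the gene bodies overlap by 3398 bases on opposite strands. Zic5 (ENSMUSG00000041703) spans chr14:122456795-122465677 on the minus strand and Zic2 (ENSMUSG00000061524) chr14:122475435-122479852 on the plus strand, with 9757 bases between them. How strand was handled in counting is not stated, and reads from the stretch shared by Zic1 and Zic4 could only be told apart by strand.

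The RefSeq starts of Zic1 and Zic4 lie 3204 bases apart and point away from each other. RefSeq promoter sequence (GRCm38.p6) was matched for 3 of the 4 genes, all but Zic2. The 200 bases that begin 250 bases before each start are shown because the neighbours Zic1 and Zic4 differ in base content there. They are written in the direction of transcription, with CCAAT on either strand in capitals.
Zic1, chr9:91365819-91366018, minus strand: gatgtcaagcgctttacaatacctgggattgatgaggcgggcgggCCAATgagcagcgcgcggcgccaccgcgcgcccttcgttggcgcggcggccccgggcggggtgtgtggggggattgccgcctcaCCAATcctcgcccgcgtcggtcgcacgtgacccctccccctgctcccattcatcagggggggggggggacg
Zic4, chr9:91368722-91368921, plus strand: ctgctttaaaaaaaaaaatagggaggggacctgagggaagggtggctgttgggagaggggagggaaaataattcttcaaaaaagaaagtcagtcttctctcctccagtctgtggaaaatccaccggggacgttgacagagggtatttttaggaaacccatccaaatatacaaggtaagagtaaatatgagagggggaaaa
Zic5, chr14:122465709-122465908, minus strand: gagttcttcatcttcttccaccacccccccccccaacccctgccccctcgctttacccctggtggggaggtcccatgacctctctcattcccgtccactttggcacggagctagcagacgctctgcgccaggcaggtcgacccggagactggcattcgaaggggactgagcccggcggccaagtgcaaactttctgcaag
The Zic1 window was 71.5% G or C with 24 CG pairs and held CCAAT at 2 places, against 43.5%, 2 CG pairs and no CCAAT for Zic4, and 63.0%, 10 CG pairs and no CCAAT for Zic5. Over the windows of all 32851 promoters the medians were 51.5% and 4 CG pairs, and 28.4% held CCAAT. The E-box CANNTG, which reads the same on both strands, occurred 1 time each in the Zic1 and Zic5 windows and not in the Zic4 window, and in 59.0% of all windows. The Zic-type site CAGCAGG and the Gli site TGGGTGGTC, searched on both strands, were in none of the 3 windows and in 6.82% and 0.192% of all.

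Cells were gated by marker genes. Cells with at least 2 markers of blood, endothelium, epithelium, neurons, or neural crest or glia were set aside. Cells with UMIs of at least 2 of the 4 neural genes Sox2, Sox1, Sox3 and Hes5 were neural, and the dorsal neural tube gate took those with Pax3, Pax7, Msx1 or Olig3. Of the remaining cells, those with a UMI of Myf5 (the first myogenic factor), Pax3 (dermomyotome and muscle progenitors), En1 (central dermomyotome and dorsal dermis) or Pax1 or Pax9 (sclerotome, the source of the vertebrae) formed 4 gates that may share cells. The gates held 455 and 667 cells (Myf5), 1539 and 758 (Pax3), 11 and 1220 (En1), 1983 and 2360 (Pax1/Pax9) and 985 and 81 (dorsal neural tube) at E9.5 and E11.5. In the dorsal neural tube gate 6 and 4 of 6 further dorsal markers (Msx3, Wnt1, Wnt3a, Lmx1a, Gdf7 and Atoh1) were found, with summed levels of 112 and 197 UMIs per 1000000 UMIs of the gate (UPM). In the mesoderm gates these 6 genes summed to between 0 and 13.0 UPM, the highest in the Pax3 gate at E9.5. Myod1, Myog, Des and Met summed to 92.3 and 1003 UPM in the Myf5 gate, and Nkx3-2, Foxc2, Bmp7, Sox9 and Uncx to 329 and 426 UPM in the Pax1/Pax9 gate. Not all of these sums were particular to the gate. Myod1, Myog, Des and Met reached 187 UPM in the 11 En1 cells at E9.5 and 673 in crest or glia cells at E11.5. The 5 sclerotome genes were at 78.8 to 155 UPM in the other mesoderm gates. In dorsal, ventral and other neural tube cells at E11.5 they were at 421, 575 and 580. The 6 dorsal markers were at 33.0 and 39.0 UPM in blood cells.

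Zic1 was found in all 5 gates, and its order across them differed between stages. At E9.5 its level was 117 UPM (112 to 123) in the dorsal neural tube, 91.2 (85.1 to 97.7) with Myf5, 57.8 (54.9 to 60.8) with Pax3 and 53.9 (51.2 to 56.7) with Pax1 or Pax9. The last 2 could not be separated at this depth. At E11.5 it was 323 (287 to 363) in the dorsal neural tube, 143 (139 to 148) with Pax1 or Pax9, 107 (102 to 111) with En1, 102 (96.3 to 107) with Pax3 and 65.6 (61.2 to 70.2) with Myf5. The En1 and Pax3 values could not be separated. The Myf5 gate, above the Pax3 and Pax1/Pax9 gates at E9.5, was below both at E11.5. The 11 En1 cells at E9.5 held 3 Zic1 UMIs, 1 Zic2 UMI and none of Zic4 or Zic5, and the Zic1 log2 ratio of E11.5 over E9.5 in that gate, 2.81 (1.27 to 5.09), rests on a single E9.5 cell and is not read further.

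Low levels in other classes set the background. Ventral neural tube cells at E9.5 had 1.99 UPM of Zic1 (1.14 to 3.24), and 1.53% of them held a Zic1 UMI at a median of 10699 UMIs per cell, against 55.7% of dorsal neural tube cells at a median of 14438. With each cell thinned to 5000 UMIs the shares were 0.784% and 37.0%. Lateral plate cells had 3.62 (2.18 to 5.66) and 0.657 (0.0166 to 3.66) at the 2 stages. Blood cells, which should lack Zic1, had 8.92 (5.66 to 13.4) and 8.56 (5.93 to 12.0). Endothelial cells had 8.04 (5.99 to 10.6) and 33.4 (25.2 to 43.3). The Zic1 levels of all gates other than En1 at E9.5 lay above each of these. For Zic2 the blood value at E9.5 was 5.04 (2.69 to 8.62) and at E11.5 1.26 (0.409 to 2.94), and for Zic5 1.55 (0.423 to 3.97) and 0.503 (0.0610 to 1.82). The E11.5 levels of Zic5 in the Myf5, Pax3 and En1 gates, 1.68, 1.06 and 1.03, could therefore not be told apart from that background at this depth. The blood value of Zic5 at E11.5 rested on 2 UMIs in 1 of 231 cells. Zic2 at E11.5 was 3.28 (2.35 to 4.44) in the Myf5 gate, which overlapped blood, and 4.33 and 4.79 in the Pax3 and En1 gates. All 3 lay within the endothelial interval for Zic2, 5.96 (2.86 to 11.0). Background for Zic4 was higher in the later library. Blood cells had 0.776 UPM of it (0.0940 to 2.80), then 1.76 (0.708 to 3.63). Endothelial cells had 0.631 (0.172 to 1.61), then 11.9 (7.28 to 18.4). The E11.5 level of Zic4 in the Myf5 gate, 17.6 (15.3 to 20.1), overlapped this endothelial interval and lay above that of blood. The endothelial value rested on 20 UMIs in 8 of 96 cells, with at most 9 in a cell. Zic4 in the other gates of that stage lay above the endothelial interval.

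**Figure D1:**
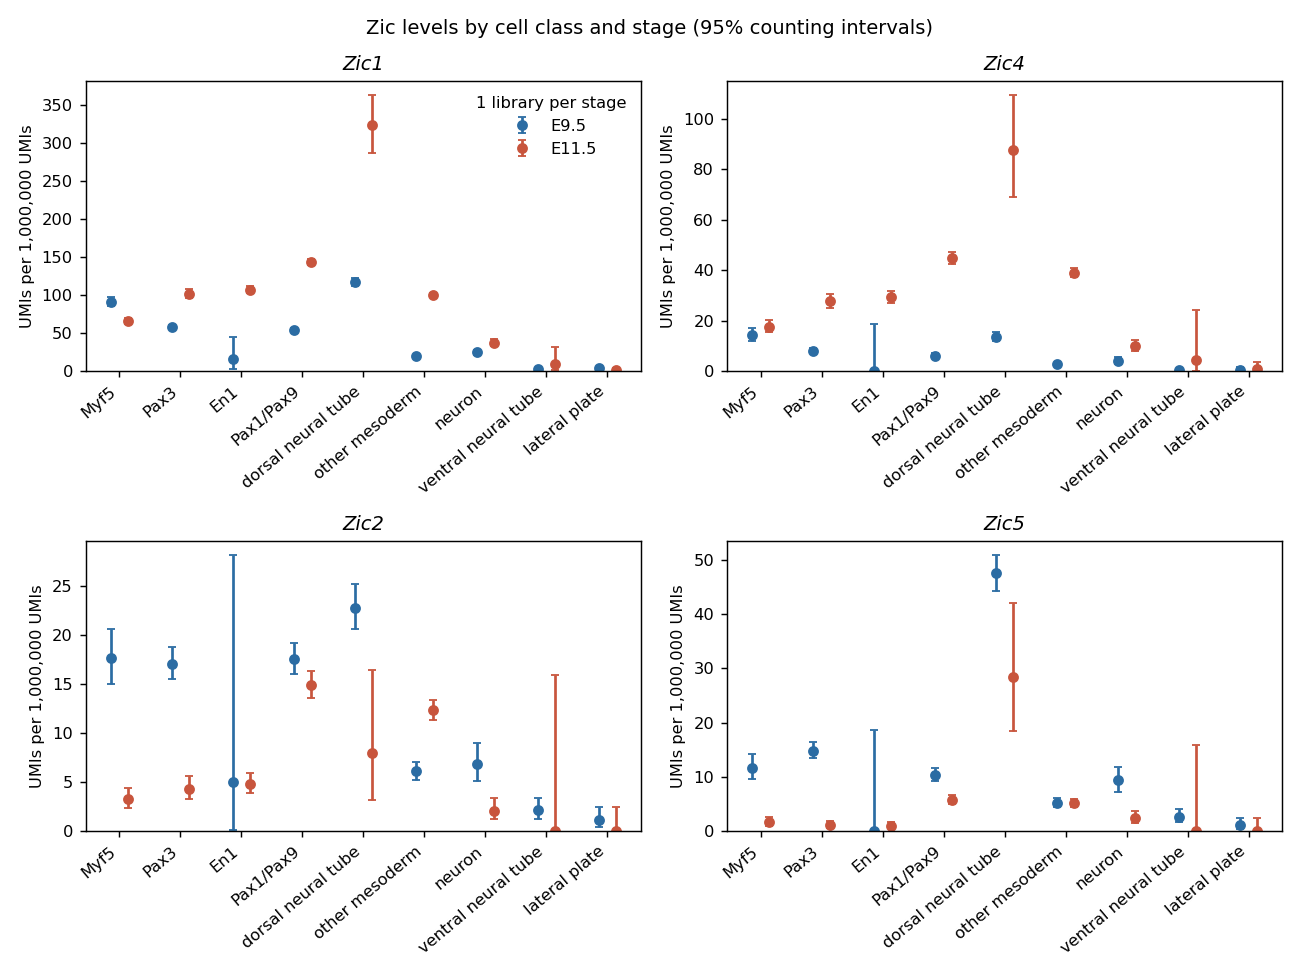
Each point is the level of one Zic gene (UMIs per 1,000,000 UMIs, linear axis) in 1 class of cells at E9.5 (blue) or E11.5 (red), with its exact 95% counting interval and 1 library per stage. Zic1 and Zic4 are higher at E11.5 in the Pax3, Pax1/Pax9 and dorsal neural tube gates, Zic2 and Zic5 are lower, and the Myf5 gate has less Zic1 at E11.5 (65.6 against 91.2).

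Between the stages the 2 pairs went opposite ways in most gates, and Zic1 differed in direction between gates. In the Pax3 gate the log2 ratio of E11.5 over E9.5 was 0.82 (0.71 to 0.92) for Zic1, from 57.8 to 102 UPM. It was 1.79 (1.54 to 2.05) for Zic4, from 7.98 to 27.6. In the same gate Zic2 went from 17.1 to 4.33 (-1.98, -2.41 to -1.58) and Zic5 from 14.8 to 1.06 (-3.80, -4.69 to -3.04). Of all genes with at least 50 UMIs in that gate 13.0% were at least 2-fold higher, as was Zic4, and 4.85% at least 2-fold lower, as were Zic2 and Zic5. Without the cells that held any UMI of the 4 neural genes, an alternative chosen after seeing the data, the Zic1 ratio was 1.02. With the cells that carried markers of other tissues left in, it was 0.40.

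In the Pax1/Pax9 gate Zic1 went from 53.9 to 143 UPM (log2 ratio 1.41, 1.33 to 1.50) and Zic4 from 6.13 to 44.9 (2.87, 2.64 to 3.11). These 2 members were past 2-fold, as were 18.1% of all genes in that direction. The median log2 ratio of all genes in this gate was 0.22, so the values relative to it are lower by that amount. In the other 3 gates compared it was 0.04 to 0.10. Zic2 was within 2-fold, at 17.5 and 14.9 (-0.24, -0.42 to -0.05), and Zic5 went from 10.4 to 5.78 (-0.84, -1.12 to -0.57).

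In the Myf5 gate the Zic1 ratio was below 0, and its interval lay apart from those of the other 3 gates compared. Zic1 was lower at E11.5, 65.6 against 91.2 UPM (-0.48, -0.62 to -0.33), and Zic4 was 17.6 against 14.4 with an interval that included no difference (0.29, -0.03 to 0.62). Zic2, at 3.28 against 17.6 (-2.43, -2.96 to -1.92), and Zic5, at 1.68 against 11.7 (-2.80, -3.55 to -2.11), were at least 2-fold lower, as were 4.19% of all genes. Markers of muscle differentiation and of progenitors also differed between the stages in this gate. Myog, which drives differentiation, was at 51.6 UPM at E9.5, against 522 at E11.5, and Meox1, a dermomyotome gene, at 474 and 87.4. The part of such differences in makeup in the lower Zic1 was not tested. With at least 2 Myf5 UMIs per cell the Zic1 ratio was -0.92, and in cells that passed no other mesoderm gate (34 and 233 cells at the 2 stages) it was -2.10. The Myf5 and Pax3 gates share cells, so their ratios are not separate measurements. In cells that passed just these 2 gates (304 and 225 cells) Zic1 was 90.7 and 58.8 UPM at E9.5 and E11.5. Cells that passed the Pax3 gate alone (956 and 187) had 46.3 and 87.8. The lower Zic1 at E11.5 was not found in all parts of the Myf5 gate. Cells that passed just the Myf5 and Pax1/Pax9 gates (39 and 35) had 114.9 and 137.8 UPM at E9.5 and E11.5. Cells that passed just the Myf5, Pax3 and Pax1/Pax9 gates (76 and 18) had 68.1 and 90.0. The intervals of the 2 stages overlapped in each of these parts.

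In the dorsal neural tube Zic1 was 323 against 117 UPM (1.46, 1.28 to 1.64) and Zic4 87.6 against 13.4 (2.71, 2.31 to 3.09). Both were past 2-fold, as were 11.0% of all genes. Zic2 was 7.97 against 22.8 (-1.52, -2.84 to -0.46), past 2-fold as were 8.3% of all genes, and Zic5 was 28.4 against 47.5 (-0.74, -1.38 to -0.17). The E11.5 gate rested on 81 cells, with 7 Zic2 UMIs and 25 Zic5 UMIs. At E9.5, 256 of its 985 cells also held a UMI of Meox1, and without cells that held one, an alternative chosen after seeing the data, the Zic1 ratio was 1.24.

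The ratio of Zic1 to Zic4 UMIs differed between the stages in every gate compared, and that of Zic2 to Zic5 differed between neural tube and mesoderm. How well each transcript is captured is not known, so such a ratio is compared only between cells and not read as a ratio of molecules. At E9.5 there were 6.34 (5.26 to 7.71) Zic1 UMIs per Zic4 UMI in the Myf5 gate, 7.24 (6.25 to 8.41) with Pax3, 8.78 (7.49 to 10.3) with Pax1 or Pax9 and 8.75 (7.63 to 10.1) in the dorsal neural tube. At E11.5 there were 3.73 (3.21 to 4.35), 3.68 (3.27 to 4.14), 3.65 (3.32 to 4.03, En1), 3.19 (3.01 to 3.39) and 3.69 (2.86 to 4.81). In each of the 4 gates measured at both stages the intervals of the 2 stages did not overlap, including the Myf5 gate in which Zic1 itself was lower. The ratio also differed over all cells kept, gates included, at 8.03 (7.43 to 8.69) and 3.06 (2.95 to 3.17). In neurons it was 6.28 (4.22 to 9.64) and 3.75 (2.93 to 4.86). In crest or glia it was 6.88 (4.12 to 12.2) and 5.03 (3.55 to 7.28). The intervals overlapped in these 2 classes.

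For the other pair the dorsal neural tube stood apart from the mesoderm. It had 0.480 (0.424 to 0.542) Zic2 UMIs per Zic5 UMI at E9.5, and at E11.5 it had 0.280 (0.102 to 0.666). The mesoderm gates had 1.15 to 1.69 at E9.5, against 1.95 to 4.63 at E11.5, and none of their intervals overlapped that of the neural tube at the same stage. The Pax3 gate, with 1.15 (1.00 to 1.32) and later 4.07 (2.24 to 7.91), and the Pax1/Pax9 gate, with 1.69 (1.46 to 1.96) and 2.58 (2.16 to 3.07), had intervals that did not overlap between stages. The E11.5 ratios of the Myf5, Pax3 and En1 gates divide by 21, 14 and 19 Zic5 UMIs, levels that could not be told apart from blood. Neurons had 0.729 (0.498 to 1.06) and 0.850 (0.418 to 1.71).

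**Figure D2:**
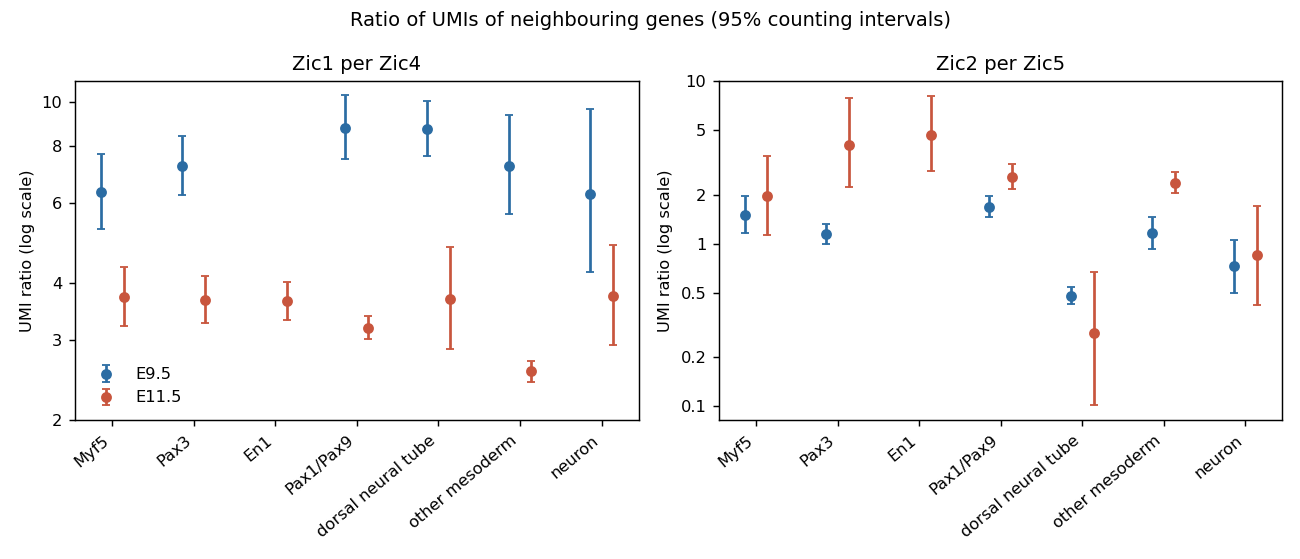
Points are UMIs of the first gene per UMI of its neighbour (log axis) by class of cells at E9.5 (blue) and E11.5 (red), with exact 95% counting intervals. Zic1 per Zic4 lies between 6.28 and 8.78 at E9.5 and between 2.56 and 3.75 at E11.5 in all classes shown, while Zic2 per Zic5 is below 1 in the dorsal neural tube at both stages.

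The members were found in the same cells more often than their frequencies alone would give. The co-detection ratio divides the cells that held both genes by the number expected within 10 bins of UMIs per cell. The bins lessen the effect of depth, but depth still varies within a bin, and doublets were left in. For Zic1 with Zic4 at E9.5 it was 3.80 (3.14 to 4.56) in the Pax3 gate, 3.23 (2.64 to 3.92) in the Pax1/Pax9 gate, 2.52 (1.92 to 3.23) in the Myf5 gate and 1.64 (1.39 to 1.93) in the dorsal neural tube. At E11.5 it was 2.18 to 2.74 in the 4 mesoderm gates. In the dorsal neural tube it was 1.36 (0.935 to 1.91), with an interval that included 1. There 33 of the 34 cells with Zic4 held Zic1, as did 53 of all 81 cells, so the ratio could hardly be higher. The ratio is capped lower where Zic1 is found in more cells, so its size is not compared between gates or stages. For Zic2 with Zic5 it was 1.45 (1.24 to 1.70) in the dorsal neural tube at E9.5, 3.43 (0.707 to 10.0) there at E11.5 from 3 cells with both, and 5.10 (4.09 to 6.28) in the Pax1/Pax9 gate at E11.5. Pairs on different chromosomes were also above 1. Zic1 with Zic2 was 2.00 (1.71 to 2.31) and 2.39 (2.11 to 2.69) in the Pax1/Pax9 gate at E9.5 and E11.5. How far a mixture of cell types within a gate contributes was not tested. Most cells held few members. All 4 were found in 54 of 985 dorsal neural tube cells (5.48%) at E9.5, and in 0.857% and 3.35% of Pax1/Pax9 gate cells at E9.5 and E11.5, while 93.6% of ventral neural tube cells at E9.5 held none.

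In the Myf5, Pax3 and Pax1/Pax9 gates a larger share of the cells with a Zic2 UMI also held Zic1 at E11.5 than at E9.5. In the Pax1/Pax9 gate 179 of 355 Zic2 cells (50.4%, 45.1 to 55.7) held a Zic1 UMI at E9.5, and 270 of 277 (97.5%, 94.9 to 99.0) did so at E11.5. Among Zic5 cells of that gate the shares were 56.0% (49.2 to 62.6) and 99.2% (95.8 to 100.0). Seen from the other side, 11.6% (9.99 to 13.3) of Pax1/Pax9 gate cells without a Zic1 UMI held Zic2 at E9.5, against 0.459% at E11.5. In blood cells the Zic2 shares were 5.67% (2.48 to 10.9) and 1.30% (0.269 to 3.75), so the interval at E9.5 overlapped that of blood and the E11.5 value was not above background. In the Pax3 gate 44.0% (38.3 to 49.8) of Zic2 cells held Zic1 at E9.5, against 95.3% (84.2 to 99.4) at E11.5, and in the Myf5 gate 61.0% (50.9 to 70.3) and 95.8% (78.9 to 99.9). Zic4 cells already held Zic1 in 82.9% to 93.8% of cases in the 4 gates at E9.5.

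Cells were also thinned to 5000 UMIs each, leaving out 4 to 71 shallower cells per gate and stage (none of the 11 En1 cells). Thinning evens out depth but not the level of Zic1, which was more abundant at E11.5 in 2 of these gates. The share of all cells with Zic1 is therefore given beside. Pax1/Pax9 gate cells with Zic1 held 3.27 and 5.37 Zic1 UMIs on average at E9.5 and E11.5. The part of the Zic1 level in the higher shares was not tested. In the Pax1/Pax9 gate Zic2 cells then held Zic1 in 39.0% (31.4 to 47.0) and 86.6% (79.9 to 91.7) at the 2 stages, against 14.5% and 26.5% of all its cells. In the Myf5 gate the shares were 59.0% (42.1 to 74.4) and 90.9% (58.7 to 99.8), with overlapping intervals and only 11 Zic2 cells at E11.5, while the share of all cells with Zic1 was 24.2% and 17.5%. In the Pax3 gate the shares of Zic2 cells were 36.9% (28.6 to 45.8) and 75.0% (47.6 to 92.7), with 16 Zic2 cells at E11.5. Of all cells of that gate 15.5% and 27.7% held Zic1. For Zic4 cells of the Myf5 and Pax3 gates the thinned shares were not higher at E11.5, at 88.0% and 62.8% and at 75.9% and 75.3%. For Zic4 cells of the Pax1/Pax9 gate the share was higher at E11.5, at 59.5% (43.3 to 74.4) and 82.0% (77.3 to 86.0).

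**Figure D3:**
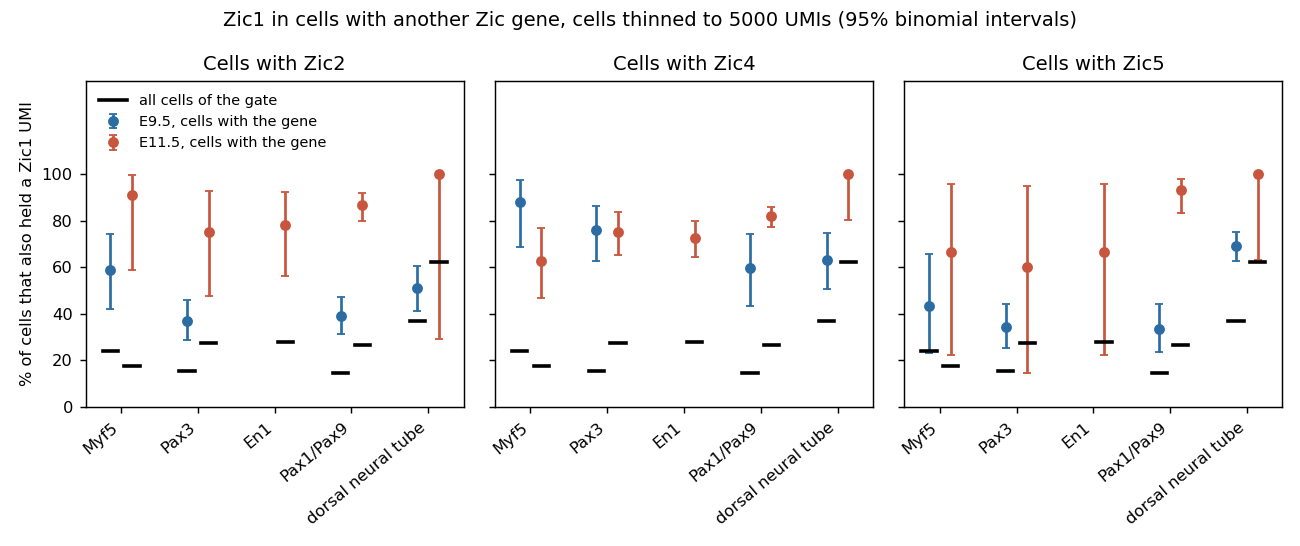
Points give the percentage of cells with a Zic2, Zic4 or Zic5 UMI that also held a Zic1 UMI, after thinning each cell to 5000 UMIs, at E9.5 (blue) and E11.5 (red) with exact 95% binomial intervals, and black bars give the percentage over all cells of the gate. The Pax1/Pax9 gate goes from 39.0% to 86.6% for Zic2 and from 33.3% to 93.1% for Zic5.

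Among cells of the Pax1/Pax9 gate Zic1 was highest in different cells at the 2 stages. Splitting the gate by which of the genes was found, a split made after seeing the data, gave 1326 cells with Pax1 only, 466 with both and 191 with Pax9 only at E9.5. The E11.5 numbers were 1239, 734 and 387. At E9.5 Zic1 was highest in Pax1-only cells, at 63.7 UPM (60.1 to 67.5), with 36.9 (32.6 to 41.6) in cells with both and 31.2 (24.7 to 38.8) in Pax9-only cells. The last 2 intervals overlapped, so only Pax1-only cells stood apart at E9.5. At E11.5 Pax1-only cells were the lowest, with 69.4 (65.4 to 73.6), against 174 (166 to 182) with both and 315 (300 to 331) with Pax9 only. The intervals of the 2 stages overlapped in Pax1-only cells, while cells with Pax9 were higher at E11.5. Zic4 had 21.9 (19.7 to 24.3), 48.2 (44.0 to 52.6) and 111 (102 to 121) in the same order at E11.5, and Zic2 had 6.68 (5.48 to 8.08), 14.3 (12.1 to 16.8) and 42.1 (36.6 to 48.2). Zic5 had 2.87 (2.10 to 3.83), 5.35 (4.03 to 6.97) and 15.9 (12.6 to 19.8), so that all 4 members were ordered alike at E11.5. At E9.5 the 3 groups had overlapping intervals for Zic2 (18.4, 16.4 and 14.4) and Zic5 (11.4, 8.14 and 8.96). Zic4 was at 7.25 (6.07 to 8.60), 3.93 (2.61 to 5.68) and 4.29 (2.14 to 7.67) at that stage. Median UMIs per cell in these 6 groups ran from 11734 to 13446.

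**Figure D4:**
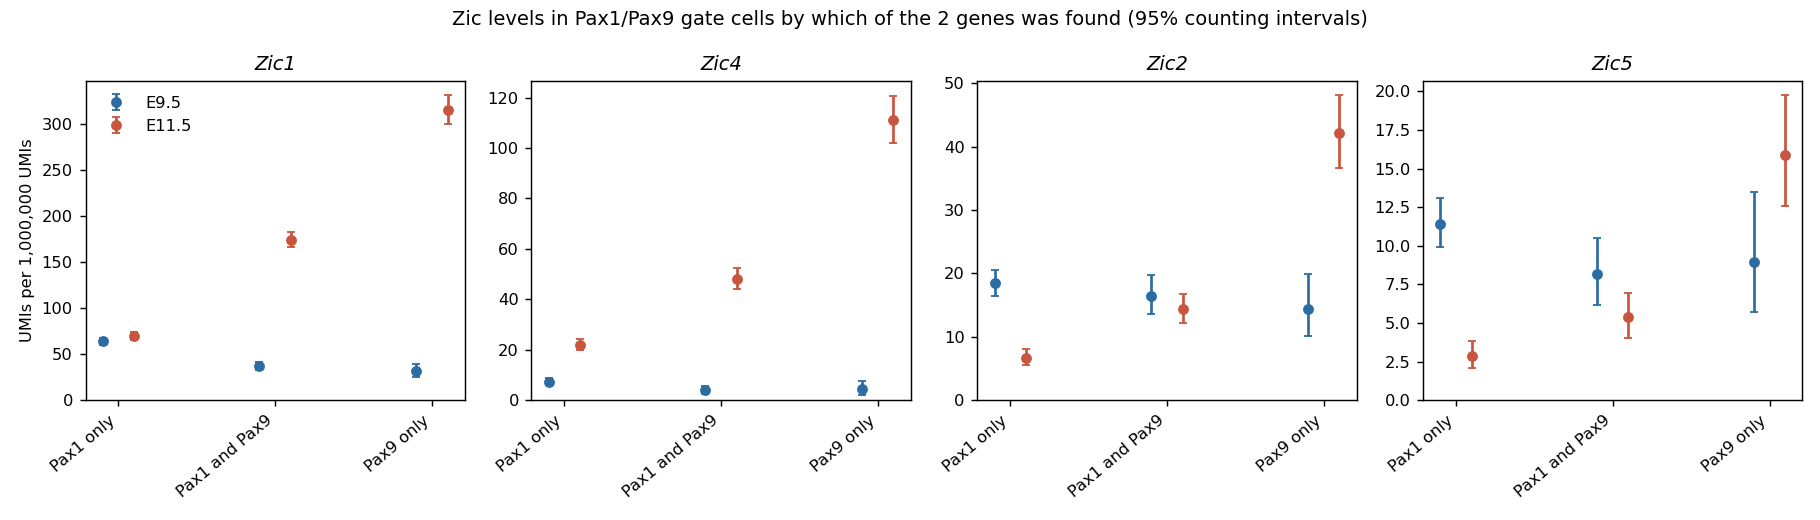
Each point is the level of one Zic gene (UMIs per 1,000,000 UMIs, linear axis from 0) in Pax1/Pax9 gate cells with Pax1 only, both genes or Pax9 only at E9.5 (blue) and E11.5 (red), with exact 95% counting intervals. At E11.5 all 4 genes are highest in cells with Pax9 only, with Zic1 at 315, while at E9.5 Zic1 is highest in cells with Pax1 only, at 63.7.

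Zic1 also differed by other markers of the gates. Lbx1 and Sim1 mark the ventrolateral dermomyotome and migrating muscle precursors, and cells with them had less Zic1 wherever 15 or more such cells were present. The fixed dermomyotome list also held Dmrt2, Meox1 and Pax7, and not all of these followed Lbx1 and Sim1. Pax7 in the Pax3 and Pax1/Pax9 gates, and Dmrt2 in the Pax1/Pax9 gate, went with more Zic1 at E9.5 and less at E11.5. In the Pax3 gate at E9.5 Zic1 was 5.70 UPM in the 150 cells with Lbx1 and 64.1 in the others (log2 ratio -3.49, -4.30 to -2.79), and 19.2 against 71.1 by Sim1 (-1.89, -2.16 to -1.63). At E11.5 it was 18.9 against 123 by Sim1 (-2.70, -3.13 to -2.30). Des, a filament gene of differentiating muscle, also went with less Zic1 in every mesoderm gate and stage compared. In the Myf5 gate at E11.5 Zic1 was 49.8 in cells with Des and 103 in cells without (-1.05, -1.25 to -0.84).

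Prrx1, a mesenchymal homeobox gene, went with more Zic1 in the Myf5 and Pax3 gates at both stages and in the En1 gate at E11.5. In the Myf5 gate Zic1 was 149 with Prrx1 and 58.3 without at E9.5 (1.35, 1.15 to 1.56), and at E11.5 the levels were 105 and 41.2 (1.35, 1.14 to 1.56). In the En1 gate the levels were 127 and 52.8 (1.26, 1.07 to 1.45). Among cells with Pax1 or Pax9 it was 92.5 with and 38.6 without at E9.5, but 134 and 155 at E11.5. The fixed list that held Prrx1 also held Twist2, Pdgfra and Gli1, which did not follow it. In the Myf5 gate Twist2, Pdgfra and Gli1 went with less Zic1 at E9.5 and more at E11.5. So did Twist2 and Pdgfra in the Pax3 gate, and Pdgfra and Gli1 in the Pax1/Pax9 gate.

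Of the 5 listed sclerotome genes Foxc2 and Sox9 stood on opposite sides at the 2 stages in the Pax1/Pax9 gate, while Bmp7 and Uncx went with more Zic1 at both. Sox9, which drives cartilage formation, went with less Zic1 in the Pax1/Pax9 gate at E9.5, 46.0 against 77.2 UPM (-0.75, -0.90 to -0.59), and with more at E11.5, 171 against 86.3 (0.99, 0.88 to 1.10). Within Pax9-only cells Zic1 was at 37.6 with Sox9 and 21.5 without at E9.5, with overlapping intervals, and at 296 (279 to 313) and 381 (346 to 418) later. Cells with both Pax genes had 36.1 and 40.9 at E9.5 and 174 and 171 later, with overlapping intervals at both stages. The gate's pattern was found in Pax1-only cells, with 51.3 and 98.0 at E9.5, then 105 and 36.1. Foxc2 over the whole gate had the same signs as Sox9, with log2 ratios of -0.45 (-0.61 to -0.28) and 1.18 (1.09 to 1.26). Pdgfra, a receptor of mesenchymal cells, went from 72.0 with and 113 without in the Myf5 gate at E9.5 to 147 and 41.2 at E11.5. Of the fixed markers with at least 15 cells at both stages, 8 of 21 in the Myf5 gate, 4 of 23 in the Pax3 gate and 4 of 21 in the Pax1/Pax9 gate had an interval below 0 at E9.5 and above 0 at E11.5. The reverse held for 1, 4 and 5 markers. These were Nes in the Myf5 gate and Msi1, Nes, Pax7 and Myf5 in the Pax3 gate. In the Pax1/Pax9 gate they were Nes, Dmrt2, Pax7, Prrx1 and Myf5. The cells of 1 library are not replicates, so none of these differences was tested over embryos. The share of all genes with such a change of side is not given, so the counts are not read as particular to these markers. They include genes that define gates, such as Pax3, Pax1 and Pax9 in the Myf5 gate.

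**Figure D5:**
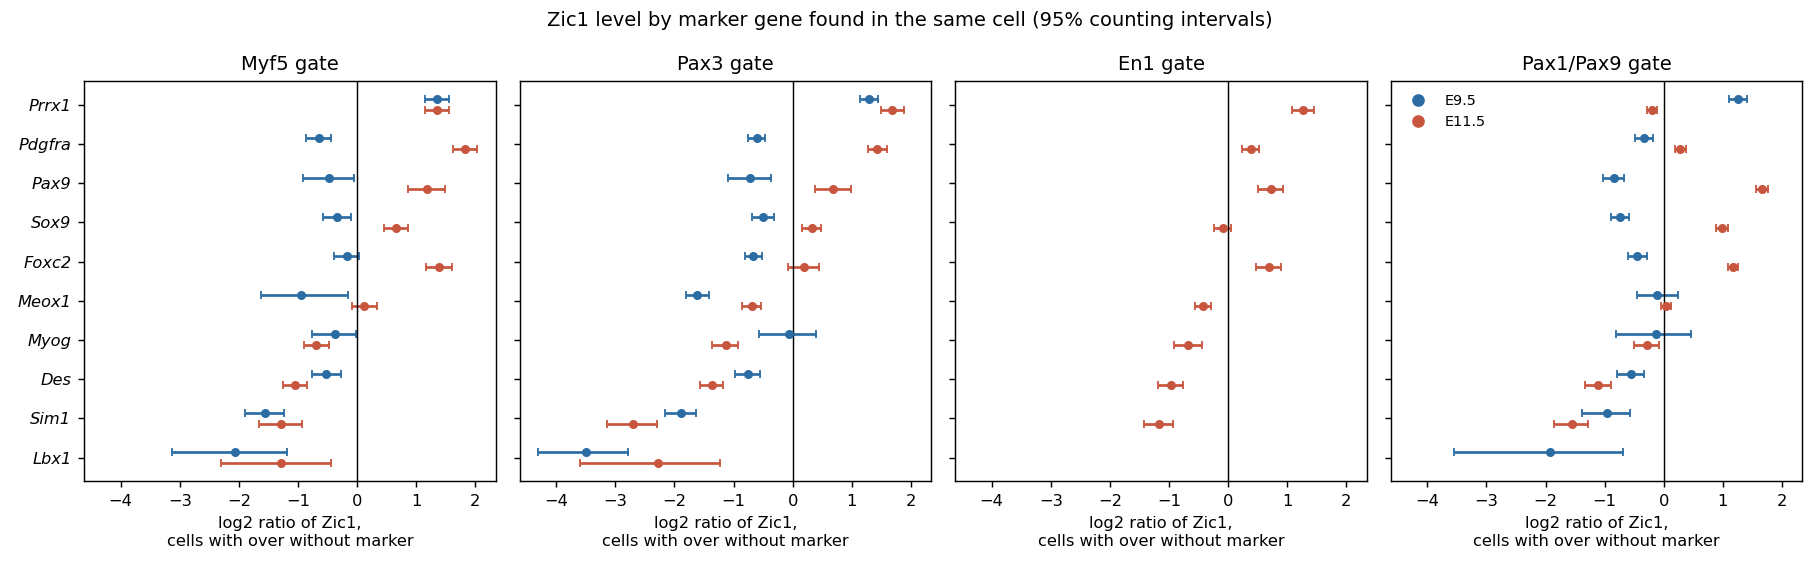
Points are log2 ratios of the Zic1 level in cells with over cells without a UMI of each of 10 marker genes, in the 4 mesoderm gates at E9.5 (blue) and E11.5 (red), with exact 95% counting intervals, for markers found in at least 15 cells and chosen from the fixed lists after their values were seen. Lbx1 and Sim1 lie left of 0 throughout, and Sox9, Pax9 and Pdgfra lie left of 0 at E9.5 and right of 0 at E11.5 in the Myf5, Pax3 and Pax1/Pax9 gates.

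In the dorsal neural tube gate at E9.5, Zic1 and Zic5 were higher in cells with Olig3 and in cells with Wnt1. Other genes of the dorsal list are not given here. At E9.5 Zic5 was 107 UPM in the 243 cells with Olig3, a marker of the most dorsal progenitors, and 29.7 in the others (1.86 on the log2 scale), and Zic1 was 241 and 80.5 (1.59, 1.46 to 1.71). With Wnt1, a roof plate ligand, Zic5 was 141 against 39.6 and Zic1 255 against 106. Pax6, which extends into intermediate progenitors, went the other way, with Zic1 at 110 with it and 136 without (-0.30, -0.44 to -0.16). Olig3 is one of the genes that define the gate, while Wnt1 and Pax6 are not. Without Scrublet calls 833 of the 985 cells were left, and without cells that held Meox1 729. The part of such cells in these differences was not tested.

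Genes ranked by Zic1 within each gate began with Zic4. Genes with at least 100 UMIs in the gate at each stage were ordered by the smaller of the log2 ratios at the 2 stages between cells with and without Zic1. Zic4 was first in all 3 gates ranked, with log2 ratios of 5.04 and 6.09 (Myf5), 5.53 and 6.39 (Pax3) and 4.25 and 5.51 (Pax1/Pax9) at E9.5 and E11.5. With Pax1 or Pax9 the genes named after it were Zic5 (2.03 and 8.02, the latter 5.52 to 13.3), Zic2 (1.71 and 5.89) and Epha7, an ephrin receptor (1.54 and 1.55). Zic2 and Zic5 could not enter the other 2 rankings. At E11.5 they had 41 and 21 UMIs in the Myf5 gate and 57 and 14 in the Pax3 gate, fewer than the 100 needed. In the Myf5 gate Apoe, a lipid carrier (2.15 and 1.74), Slc1a3, a glutamate transporter (1.87 and 1.46), Epha7 (1.40 and 1.22) and Prrx1 (1.26 and 1.16) followed Zic4. In the Pax3 gate Fabp7, a fatty acid binding protein of neural progenitors (4.26 and 3.36), Apoe (2.32 and 2.48) and Pantr1 (2.67 and 1.74) did.

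Neural RNA moved with Zic1 at E9.5, most in the Pax3 gate. The 4 neural genes of the gate summed to 47.6 UPM in its cells with Zic1 and 9.34 in those without, and the 6 dorsal neural tube markers to 45.9 and 2.40. The dorsal markers were also higher with Zic1 at E9.5 in the Myf5 gate, 4.41 against 0.364 UPM, where the neural genes were at 7.94 and 4.18, and in the Pax1/Pax9 gate, 2.60 against 0.486. With Pax1 or Pax9 the neural genes summed to 6.16 and 5.44 UPM in the E9.5 library, and to 1.48 and 1.30 in the later one. At E11.5 they were at 3.47 with Zic1 and 1.69 without in the Pax3 gate, but at 0.232 and 1.71 in the Myf5 gate. The dorsal markers at E11.5 were at 2.56 and 0.649 (Pax3), 0.464 and 0 (Myf5), and 0.311 and 1.08 (Pax1/Pax9). Scrublet, a doublet caller, marked 7.12% of Pax3 gate cells with Zic1 and 4.04% of those without at E9.5, and a higher share of cells with Zic1 in the Myf5 and Pax1/Pax9 gates at both stages too. The part of neural RNA and doublets in these rankings was not tested.

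Outside the gates, mesoderm cells that passed none of them, without lateral plate markers, had 19.4 (17.7 to 21.1) UPM of Zic1 at E9.5, against 99.7 (96.8 to 103) at E11.5. At E11.5 they were 40.6% of all cells and held 36.9% of Zic1, 46.8% of Zic2, 44.1% of Zic4 and 45.6% of Zic5 UMIs. The dorsal neural tube gate held 34.4% of Zic1 and 44.7% of Zic5 UMIs at E9.5, with 10.0% of the cells.

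Across 28 points, the 14 disjoint classes of cells at 2 stages, the gene most like Zic1 was Zic4 (Pearson r = 0.92 of the log2 level, given as a description, since classes share libraries). Boc, a hedgehog co-receptor (0.72), 2810442N19Rik (0.70), Pycr1 (0.69) and Uncx, a gene of the caudal sclerotome (0.66), followed. Zic4 was most like Zic1, Gm29478 (0.84), 2810442N19Rik (0.82), Boc (0.80) and Srpx (0.72). Among the genes most like Zic2 were Zic5 (0.76), Meox1 (0.74), Meox2 (0.71) and Ism1 (0.68), and Zic5 was most like Zic2 (0.76), Gm26609 (0.73), Lrrtm3 (0.72), Ifrd1 (0.72) and Wnt1 (0.72). Zic1 with Zic4 had the highest likeness of the 6 pairs of members and Zic4 with Zic5 the lowest (0.39).

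A list of 21 genes of Gli and hedgehog signalling, dorsal signals, Bmp targets and Zic partners was set beside the members. Of those with at least 50 UMIs, 3 of 16 were at least 2-fold higher at E11.5 and 2 of 16 lower in the Myf5 gate, 3 and 4 of 19 in the Pax3 gate, 4 and 2 of 18 in the Pax1/Pax9 gate, and 2 and 5 of 17 in the dorsal neural tube. Over all genes the shares were 13.3% higher and 4.19% lower (Myf5), 13.0% and 4.85% (Pax3), 18.1% and 3.91% (Pax1/Pax9), and 11.0% and 8.3% (dorsal neural tube), so the counts higher were near the background. The hedgehog receptor Ptch1, also a target of the pathway, was lower at E11.5 in the 3 mesoderm gates compared, by log2 ratios of -1.72 (Myf5), -1.87 (Pax3) and -1.13 (Pax1/Pax9), and level in the dorsal neural tube (0.01, -0.40 to 0.39). Gli3, the main repressor of the pathway, was at 33.5 and 59.6 UPM at the 2 stages in the Pax1/Pax9 gate (0.83, 0.72 to 0.95). Mdfi, an inhibitor of myogenic factors that also binds Zic proteins, was higher at E11.5 in the 3 mesoderm gates, by 2.32 (Myf5), 2.17 (Pax3) and 2.31 (Pax1/Pax9). The Bmp target Msx1 was lower in the Pax3 gate, 1.82 against 30.0 UPM (-4.04, -4.69 to -3.46). In the dorsal neural tube, a gate that Msx1 itself helps to define, it was 18.2 against 114.6 (-2.65, -3.46 to -1.95). Msx1 was also lower in the Myf5 gate, 2.64 against 10.8 (-2.03), and within 2-fold in the Pax1/Pax9 gate, 5.08 against 7.03 (-0.47). The dorsal neural tube markers Wnt1 and Wnt3a were lower in the Pax3 gate too, 0 against 4.43 UPM and 0.0759 against 1.70. The part of neural RNA in the lower Msx1 of that gate was not tested. Msx2, another Bmp target, was higher in the dorsal neural tube, 48.9 against 8.32 UPM (2.56, 2.03 to 3.06), and Id3 was higher in the Pax1/Pax9 gate, 640.2 against 245 (1.39, 1.35 to 1.43), and lower in the dorsal neural tube, 223 against 683 (-1.61, -1.82 to -1.41).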

How the data were processed

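Inter-limb somites of 3 mouse embryos were pooled per stage and sequenced as 1 10x library per stage. The UMI counts per gene and cell were deposited by the authors as raw matrices made with Cell Ranger 3.0.1, per the labels. Cells with 200 to 6499 genes and under 15% mitochondrial UMIs were kept, which removed 270 and 572 barcodes, and 30 barcode sequences occurred in both libraries. UMIs were summed over the cells of a gate and divided by all UMIs of the gate (Python 3.11.15, numpy 2.4.6, scipy 1.17.1, pandas 2.3.3). Intervals are exact Poisson, conditional binomial for ratios, and Clopper-Pearson for shares. The stage ratio was tested on simulated data for the Pax3 gate over 11527 genes, and 95.5% of its intervals covered the ratio put in. That coverage gives no measure of variation between embryos, since each stage is 1 library. The interval also counts UMIs as independent, while Zic1 UMIs were clustered in cells. In the Pax3 gate at E9.5, 22.8% of cells held them, with at most 33 per cell. Doublets were limited by the cap on genes, and Scrublet (scanpy 1.11.5) calls were removed as an alternative. Its default setting called 1 of 10167 barcodes at E11.5, so the log transform was used (658 and 432 calls), chosen after 4 settings were tried. Genes were named as the members, the 5 most correlated genes over classes (at least 500 UMIs), the 5 genes with the largest smaller log2 ratio between cells with and without Zic1, and a fixed related list. Genes chosen otherwise are the plotted markers. The members and lists were chosen with earlier results of these data known. Some genes that these rules name are not reported here.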

Additional observations from a re-analysis of the deposited data

Results flagged for a closer look

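The Zic1 log2 ratio of E11.5 over E9.5 was -0.48 in the Myf5 gate and 0.82, 1.41 and 1.46 in the Pax3, Pax1/Pax9 and dorsal neural tube gates. The opposite directions drew attention, and the difference between gates was not tested, since each stage is 1 library. The Myf5 and Pax3 gates also share cells.

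The Zic1 log2 ratio between cells with and without a marker had opposite signs at E9.5 and E11.5 for several markers, and these differences were not tested either. In the Myf5 gate the values were -0.34 and 0.67 for Sox9, -0.47 and 1.19 for Pax9, and -0.65 and 1.83 for Pdgfra. In the Pax3 gate they were -0.50 and 0.32 for Sox9, -0.72 and 0.68 for Pax9, and -0.61 and 1.43 for Pdgfra. In the Pax1/Pax9 gate they were -0.45 and 1.18 for Foxc2, -0.75 and 0.99 for Sox9, -0.85 and 1.67 for Pax9, -0.33 and 0.28 for Pdgfra, and 1.26 and -0.20 for Prrx1. Cells of this gate without Pax9 are its Pax1-only cells, so the Pax9 values repeat the split by Pax1 and Pax9.

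Outside the 5 gates, Zic levels with intervals above those of ventral neural tube, lateral plate and blood cells of the same stage were found in neurons, with 24.4 and 37.4 Zic1 UMIs per 1000000 UMIs (UPM) at E9.5 and E11.5 and 9.38 UPM of Zic5 at E9.5. Neural crest or glia had 6.84 UPM of Zic5 at E9.5. Cells left in no class had 19.4 and 99.7 for Zic1 at E9.5 and E11.5, 5.24 for Zic5 at E9.5 and 39.0 for Zic4 at E11.5. Endothelial intervals overlapped those of Zic1 in neurons at E11.5 and of Zic5 in crest or glia and in cells left in no class at E9.5.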

How the results depend on the processing

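No result reversed a called direction. Of 127 alternatives for stage ratios, those of the small En1 gate included, 108 stayed within counting error and 19 moved, as did 48 and 23 of 71 for co-detection ratios, 233 and 59 of 292 for levels, and 6 and 34 of 40 for shares of cells with a UMI, which were thinned. The Zic1 log2 ratio between stages in the Myf5 gate was -0.92 with 2 UMIs of the gate gene, -2.10 in cells of only 1 mesoderm gate and -0.63 with all cells weighted alike. In the Pax3 gate it was 0.40 with cells carrying markers of other tissues left in, 0.92 in cells of only 1 mesoderm gate and 1.02 without cells with a UMI of the 4 neural genes. In the Pax1/Pax9 gate it was 1.51 with marked cells left in. In the dorsal neural tube it was 1.03 with 3 of the 4 neural genes required, 1.25 without Scrublet calls and 1.24 without cells with Meox1. Leaving out cells with any UMI of the 4 neural genes, or with Meox1, was chosen after seeing the data. The co-detection ratio of Zic2 with Zic5 in the dorsal neural tube at E9.5 was 2.07 after thinning and 2.43 when detection needed 2 UMIs. The Zic4 ratio in the Myf5 gate, whose interval spans 0, was -0.48 with 2 UMIs of the gate gene and -1.61 in cells of only 1 mesoderm gate, against 0.38 with marked cells left in and 0.39 with 3 of the 4 neural genes required, all with intervals clear of 0. The causes were not tested. No paired analysis was possible because each stage is 1 library. Depth limits Zic2 and Zic5 in the dorsal neural tube at E11.5 and all members in the 11 En1 cells at E9.5.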
